A study of Mus musculus with 2 samples.

Results

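The testis-specific serine kinases examined here were Tssk1, Tssk2, Tssk3, Tssk4 and Tssk6, 5 of the 51868 rows of the count table, chosen by their gene symbols and followed across all 2552 cells. Single-cell RNA sequencing by the Chromium 3' v2 chemistry had been applied to testis tissue of 2 wild-type C57Bl/6J Crl mice aged 8 weeks, without treatment, so that both animals belonged to 1 condition. Cells had been released by enzymatic digestion of the seminiferous tubules and passed through a strainer, with no sorting. Mouse 1 contributed 1237 cells with 27450497 UMIs (unique molecular identifiers, each standing for 1 captured transcript) and mouse 2 contributed 1315 cells with 30302332 UMIs. No cell barcode was shared between the mice. All 5 kinases were measured, with 44372 UMIs for Tssk2, 30590 for Tssk1, 20373 for Tssk6, 14384 for Tssk3 and 8504 for Tssk4. Levels were compared within a gene and not between genes.

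The Tssk genes encode a small family of serine/threonine protein kinases that is expressed almost exclusively in male germ cells after meiosis. During this phase, called spermiogenesis, round spermatids become elongated, replace histones with transition proteins and then protamines, shut down transcription and build the acrosome and the flagellum. TSSK1 and TSSK2 bind and phosphorylate TSKS, TSSK4 phosphorylates the outer dense fibre protein ODF2, and TSSK6 is required for chromatin condensation and for the relocation of the fusion protein IZUMO1, and male mice that lack TSSK1 with TSSK2, TSSK3 or TSSK6 are infertile.

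In the GENCODE vM21 annotation of GRCm38, Tssk1 (ENSMUSG00000041566, chr16:17894223-17897922, plus strand) and Tssk2 (ENSMUSG00000045521, chr16:17898637-17900024, plus strand) stood head to tail with 714 bases between them, each as a single exon. Tssk6 (ENSMUSG00000047654, chr8:69902184-69903518, plus strand) was also a single exon. Tssk3 (ENSMUSG00000000411, chr4:129489014-129491022, minus strand) had 2 exons, and the 6 coding transcripts of Tssk4 (ENSMUSG00000007591, chr14:55650184-55652539, plus strand) had 3 or 4. The proteins translated from the annotated transcripts were 365 (TSSK1), 358 (TSSK2), 268 (TSSK3), 338 (TSSK4) and 273 (TSSK6) residues long. TSSK1 and TSSK2 were the closest pair, with 264 of 323 aligned residues identical (81.7%), whereas all other pairs among the 5 shared 43.6% to 50.6%. Tssk1 and Tssk2 were also the only pair among them whose transcripts shared stretches of 98 bases, the length of the sequenced cDNA read. They shared 29 of these, counted from every base, so that the stretches can overlap. A read from these stretches could not be assigned to either gene by sequence alone, and how many such reads there were was not tested. Tssk1 lies within Dgcr2 and the start of Tssk6 overlaps Ndufa13 and Yjefn3, all on the opposite strand, and the sources used here do not state whether counting used the strand.

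The 120 bases before the RefSeq start of each gene are shown to compare the tandem pair Tssk1 and Tssk2, and because CREM, a transcription factor of round spermatids, binds cAMP response elements. All 5 genes had an entry in the RefSeq promoter table (GRCm38.p6), at chr16:17894083-17894202 (Tssk1), chr16:17898517-17898636 (Tssk2), chr4:129490771-129490890 on the minus strand (Tssk3), chr14:55650064-55650183 (Tssk4) and chr8:69902064-69902183 (Tssk6). The Tssk3 window lies inside the GENCODE span of Tssk3, whose start on the minus strand is at 129491022. It is thus upstream of the RefSeq start only. On the opposite strand, the Tssk1 window lies within Dgcr2 and the Tssk6 window within Ndufa13 and Yjefn3, and Dgcr2 starts inside the Tssk2 window, at 17898562. Capitals mark matches, on either strand, to TGACTTCA or TGACG.
Tssk1: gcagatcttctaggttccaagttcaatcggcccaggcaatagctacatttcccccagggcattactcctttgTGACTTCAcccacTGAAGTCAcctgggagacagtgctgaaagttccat
Tssk2: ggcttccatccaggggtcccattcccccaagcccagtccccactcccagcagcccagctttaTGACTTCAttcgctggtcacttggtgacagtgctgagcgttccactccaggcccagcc
Tssk3: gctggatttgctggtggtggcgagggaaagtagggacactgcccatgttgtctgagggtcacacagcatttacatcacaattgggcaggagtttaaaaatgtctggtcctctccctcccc
Tssk4: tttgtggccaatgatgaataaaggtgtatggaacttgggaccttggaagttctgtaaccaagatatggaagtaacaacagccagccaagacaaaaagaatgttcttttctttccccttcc
Tssk6: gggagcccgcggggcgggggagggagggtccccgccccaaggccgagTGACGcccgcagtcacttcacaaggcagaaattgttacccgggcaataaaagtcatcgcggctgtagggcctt
In local alignments of pairs of these windows, the longest block was that of Tssk3 and Tssk6, with 48 of 68 aligned bases identical (70.6%). Tssk1 and Tssk2 matched in 41 of 49 aligned bases (83.7%), over bases 53 to 2 before the start in Tssk1 and 63 to 15 in Tssk2. TGACTTCA stood within this block in both, once in Tssk2 and, in Tssk1, once on each strand. It was chosen after the sequences had been seen. Over the full 250 bases upstream and both strands, TGACTTCA occurred in 2 of the 5 genes and in 1.31% of the 32851 promoters of the table. The full cAMP response element TGACGTCA occurred in none of the 5 and in 1.55% of all promoters, and the shorter TGACG, which lies within it, occurred in Tssk6 alone of the 5 and in 17.8% of all. TATAAA was found in none of the 5 against 12.4% of all promoters, and CCAAT in Tssk3 and Tssk4 against 33.8%. The CCAAT of Tssk3 lies in the window that is inside the GENCODE gene.

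Cells were grouped by K-means clustering from which the 5 kinases and the genes of the lists below had been left out, so that none of these genes shaped the groups. In the order of diffusion pseudotime (a measure of how far a cell lies from an early spermatocyte along the path of similar transcriptomes), 164 early spermatocyte-like cells were followed by 526 pachytene or later spermatocyte-like cells, 689 cells of a cluster that stayed unnamed, 448 round spermatid-like cells and a pair of elongating or condensing spermatid-like clusters of 511 and 196 cells. The unnamed cluster reached its best score for round spermatids, at 1 of 12 markers. All 13 measured markers of elongating or condensing spermatids passed in each late cluster. The 196-cell cluster also passed 7 of 12 round spermatid markers and the 511-cell cluster none, and the part of this in the kinase levels of the 196 cells was not tested. Transition proteins and protamines took 15.6% to 18.9% of the UMIs of the 511 cells in the separate mice, against 6.61% to 7.29% in the 196 cells. Pseudotime did not separate these late clusters (medians 0.895 and 0.907), whereas the angle around principal components 1 and 2 placed the 196 cells (median 4.33) before the 511 cells (4.86). Both late clusters are therefore compared with round spermatids and with each other. The median UMI count per cell was 11708 in the 511-cell cluster and 18797 to 23819 in the other germ cell clusters. Only 6 spermatogonium-like, 7 Sertoli-like and 5 Leydig-like cells were found.

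On the CPM scale (counts per 1000000 UMIs), the 5 kinases in spermatocyte-like cells were near the level found in cells that should lack them. In the 12 Sertoli-like and Leydig-like cells together, Tssk1 had 59.0 CPM (exact 95% Poisson interval 25.5 to 116, counting error only). In pachytene or later spermatocytes it had 41.3 CPM in mouse 1 and 43.7 CPM in mouse 2. Tssk6 had 118 CPM (67.5 to 192) in the somatic cells against 41.7 and 56.9 CPM in those spermatocytes. Of its 16 UMIs in the somatic cells, 8 came from 1 Sertoli-like cell of mouse 2, a spread that the Poisson interval does not cover. The other 3 kinases gave the same picture, with 66.4 (Tssk2), 44.3 (Tssk3) and 14.8 (Tssk4) CPM in the somatic cells and 49.6 and 53.8, 24.0 and 29.4, and 9.11 and 10.6 CPM in the spermatocytes. Per cell, however, Tssk1, Tssk2, Tssk3 and Tssk4 had more UMIs in these spermatocytes of either mouse than in Sertoli-like or Leydig-like cells pooled over the mice. For Tssk1 these were 1.40 and 1.49 against 0.714 and 0.6, and for Tssk6 1.42 and 1.94 against 2.14 and 0.2. The spermatocytes also had more UMIs in all (median 20843 against 10536). The mean level in pachytene or later spermatocytes was 2.33% to 3.70% of each kinase's highest cluster. For Prm1, a protamine gene of late spermatids, it was 1.59%, and all 12 somatic-like cells held a Prm1 UMI. The part of free RNA from other cells in the low levels of the kinases was not tested, and these levels were read as background on the CPM scale only.

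Between early and pachytene or later spermatocytes, none of the 5 kinases was called higher and 1, Tssk6, was called lower, in edgeR's quasi-likelihood test on UMI sums per mouse and cluster with TMM scaling and Benjamini-Hochberg adjustment (0.05). Of all 14148 genes tested, 25.5% were called higher and 24.6% lower. Tssk6 had 93.4 and 72.7 CPM in the early and 41.7 and 56.9 CPM in the later spermatocytes of mouse 1 and mouse 2, and the mice did not overlap between the clusters. The log2 fold change was -0.47 (SE 0.19, adjusted p = 0.042), within the background just described. The call was lost with UMIs per cell (log2 fold change -0.05), without doublets, without the gene filter, after thinning and with clusters from the 2000 most variable genes, and with the mouse as a replicate block Tssk2 was called lower as well (2 kinases in all).

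Tssk4 and Tssk1 came closest to their highest levels at the next step. From pachytene or later spermatocytes to the unnamed cluster all 5 kinases were called higher and none lower, against 31.8% of all genes called higher and 30.5% lower. Tssk4 had 211 CPM in mouse 1 and 274 CPM in mouse 2 in the unnamed cluster, against 9.11 and 10.6 CPM before, a log2 fold change of 4.69 (SE 0.18, adjusted p = 2.6e-15). Tssk1 reached 538 and 654 CPM (log2 fold change 3.87, SE 0.18, adjusted p = 3.2e-14). In each of these kinases both mice lay far above both mice of the previous cluster. Tssk2 rose to 421 and 547 CPM (log2 fold change 3.29) and Tssk3 to 137 and 152 CPM (log2 fold change 2.51). Tssk6 stood apart, at 75.7 and 87.9 CPM, with a log2 fold change of 0.80 (SE 0.17, adjusted p = 0.00034). This rise was not called with UMIs per cell (0.01) or thinned cells (0.33). The level was not above the 118 CPM of the pooled somatic-like cells, of which 1 cell held 8 of the 16 Tssk6 UMIs. Already in the unnamed cluster, Tssk4 stood at 71.4% and Tssk1 at 51.8% of their highest cluster means, whereas Tssk2, Tssk3 and Tssk6 stood at 21.8%, 15.0% and 4.42%.

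**Figure D1:**
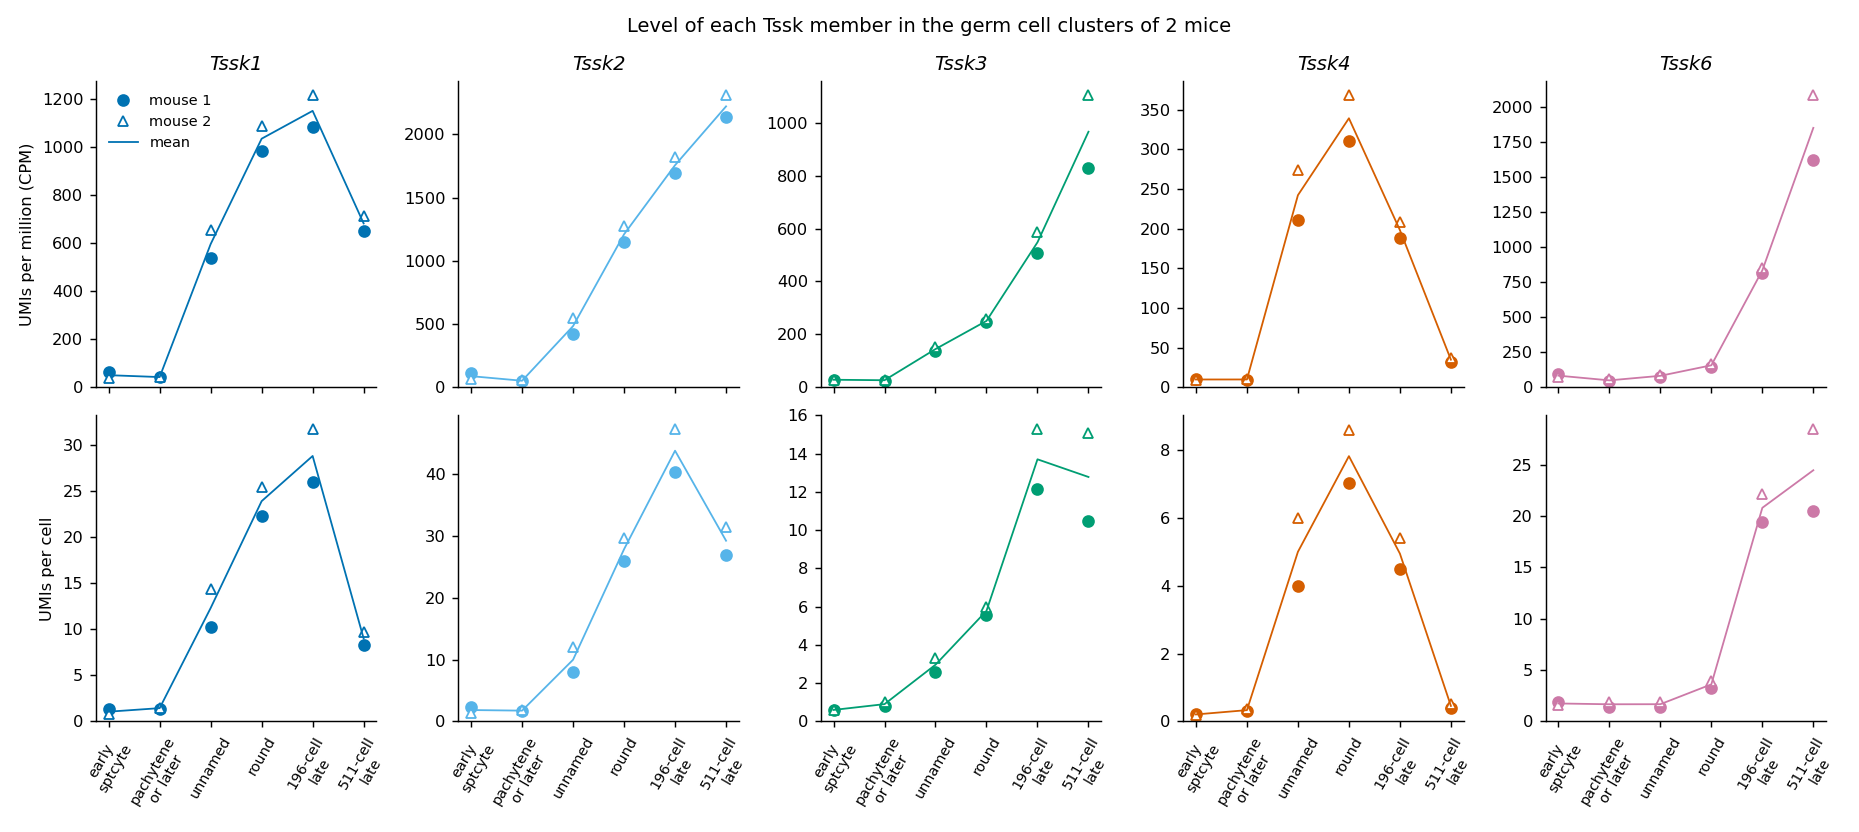
Level of each kinase in the 6 germ cell clusters, as CPM (upper panels) and UMIs per cell (lower panels), with filled circles for mouse 1, open triangles for mouse 2 and a line through the mean. Tssk4 is highest in round spermatids and low in the 511-cell late cluster, while Tssk6 is low up to round spermatids and highest in the 511-cell cluster.

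Round spermatids carried the highest level of Tssk4. Compared with the unnamed cluster, all 5 kinases were called higher and none lower, against 25.7% of all genes called higher and 20.0% lower. Tssk4 was measured at 310.3 CPM in mouse 1 and 368 CPM in mouse 2 (mean 339 ± 41.0 SD, n = 2). With TMM it was 1.66-fold above the unnamed cluster (log2 fold change 0.73, SE 0.15, adjusted p = 0.00027). With the library size alone this log2 fold change was 0.49 (adjusted p = 0.0062). With TMM, the log2 fold changes of the other kinases were 1.04 (Tssk1), 1.57 (Tssk2), 1.04 (Tssk3) and 1.18 (Tssk6). The mice did not overlap between the clusters for any of the 5. How many of all genes were also without overlap was not counted. Round spermatids had 982 and 1088 CPM of Tssk1, 1146 and 1274 CPM of Tssk2 and 245 and 257 CPM of Tssk3. Tssk6 was still at 145 and 168 CPM, which was 8.47% of its highest cluster mean.

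In the late spermatids the kinases parted, with Tssk2, Tssk3 and Tssk6 at their highest CPM in the 511 cells, Tssk1 in the 196 cells and Tssk4 in neither. From round spermatids to the 196-cell late cluster 4 kinases were called higher and none lower, against 23.3% of all genes called higher and 20.6% lower. From round spermatids to the 511-cell cluster 4 were called higher and 1, Tssk4, lower, against 26.6% and 31.7% of all genes. Between the late clusters, 3 kinases were called higher in the 511 cells and 1 lower, against 16.4% and 23.4%. The scaling moved many calls here. TMM assumes that most genes keep their level, and it kept the median log2 fold change over all genes between the 511 cells and round spermatids at -0.18, whereas scaling to the library size alone put it at -1.26 and UMIs per cell at -2.06. With the library size alone, 12.8% of all genes were called higher and 55.5% lower in the 511 cells than in round spermatids, and 6.03% and 36.7% than in the 196 cells. With UMIs per cell these shares were 8.09% and 71.9%, and 0.318% and 63.7%. The log2 fold changes of the kinases are given as fitted, and these shifts were not subtracted from them. Unless another scaling or fit is named, log2 fold changes throughout are from the TMM fit and are not ratios of the CPM shown.

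Tssk6, the kinase needed for chromatin condensation, had the largest rise of the 5 from round spermatids to the 511 cells under all 3 scalings. It had 816 CPM in mouse 1 and 852 CPM in mouse 2 in the 196-cell cluster, and 1618 and 2082 CPM in the 511-cell cluster (mean 1850.2 ± 328 SD, n = 2), and neither late cluster overlapped with round spermatids. Against round spermatids the log2 fold change was 2.91 (SE 0.18, adjusted p = 4.8e-12) for the 196 cells and 4.67 (SE 0.19, adjusted p = 2.8e-15) for the 511 cells. Counted per cell it was also higher in both, with 3.30 and 3.93 UMIs per cell in round spermatids, 19.5 and 22.2 in the 196 cells and 20.5 and 28.5 in the 511 cells. Between the late clusters, the call (log2 fold change 1.75, SE 0.17, adjusted p = 1.7e-08) was lost with UMIs per cell (0.23). Of all Tssk6 UMIs, 60.3% came from the 511-cell cluster.

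Tssk3 was likewise higher in both late clusters than in round spermatids. In the 196 cells 509 and 587 CPM were measured, and in the 511 cells 828 and 1104 CPM (mean 966 ± 195 SD, n = 2), both above the range of round spermatids. The log2 fold changes against round spermatids were 1.63 (SE 0.16, adjusted p = 1.2e-08) and 3.05 (SE 0.16, adjusted p = 3.3e-13). Per cell, 12.1 and 15.3 UMIs in the 196 cells and 10.5 and 15.1 UMIs in the 511 cells overlapped, and the difference between the late clusters (log2 fold change 1.42 with TMM) was -0.10 and not called with UMIs per cell.

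Tssk2 had its highest level relative to other RNA in the 511 cells but its highest number of molecules per cell in the 196 cells. It had 1694 and 1818 CPM in the 196 cells and 2134 and 2309 CPM in the 511 cells (mean 2221 ± 124 SD, n = 2), and the mice did not overlap between any of the 3 spermatid clusters. The log2 fold changes against round spermatids were 1.04 (SE 0.17, adjusted p = 2.3e-05) and 1.98 (SE 0.18, adjusted p = 1.3e-09). With UMIs per cell, Tssk2 was at 0.07 in the 511 cells against round spermatids and was not called. Counted per cell, it had 26.0 and 29.8 UMIs in round spermatids, 40.4 and 47.3 in the 196 cells and 27.0 and 31.6 in the 511 cells. Its difference between the late clusters turned from 0.94 (SE 0.17, adjusted p = 0.0001) with TMM to -0.58 (adjusted p = 0.0098) with UMIs per cell, and with the library size alone it was 0.34 and not called.

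Tssk1, the tandem partner of Tssk2, was lower in the 511 cells than in the 196 cells and in round spermatids on the CPM scale. Its CPM were 1086 in mouse 1 and 1216 in mouse 2 in the 196 cells (mean 1151 ± 92.3 SD, n = 2) and 653 and 712 in the 511 cells, the latter below the 982 and 1088 CPM of round spermatids without overlap. The direction against round spermatids depended on the scaling, with a log2 fold change of 0.51 (SE 0.16, adjusted p = 0.0096) with TMM, -0.60 (adjusted p = 0.0019) with the library size alone and -1.41 (adjusted p = 4.4e-07) with UMIs per cell. Per cell, there were 22.3 and 25.5 UMIs in round spermatids, 25.9 and 31.6 in the 196 cells and 8.25 and 9.73 in the 511 cells. The 196 cells and round spermatids were neighbours in the order of levels that differed with TMM (log2 fold change 0.66, SE 0.16, adjusted p = 0.0017) but not with the library size alone (0.15, SE 0.15, adjusted p = 0.41).

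Tssk4 took the opposite course to Tssk3 and Tssk6. It was at 188 and 208 CPM in the 196 cells and at 32.3 and 37.4 CPM in the 511 cells, and from round spermatids to the 511 cells it fell by 2.18 on the log2 scale (SE 0.17, adjusted p = 1.6e-10) with TMM and by 4.10 with UMIs per cell. Both mice were below both mice of round spermatids in either late cluster. The step from round spermatids to the 196 cells was -0.27 (SE 0.15, adjusted p = 0.16) with TMM. With the mouse as a replicate block it was called (-0.27, adjusted p = 0.035), and with UMIs per cell it was -0.66 and called. Per cell, there were 7.04 and 8.61 UMIs in round spermatids, 4.49 and 5.42 in the 196 cells and 0.408 and 0.511 in the 511 cells.

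**Figure D2:**
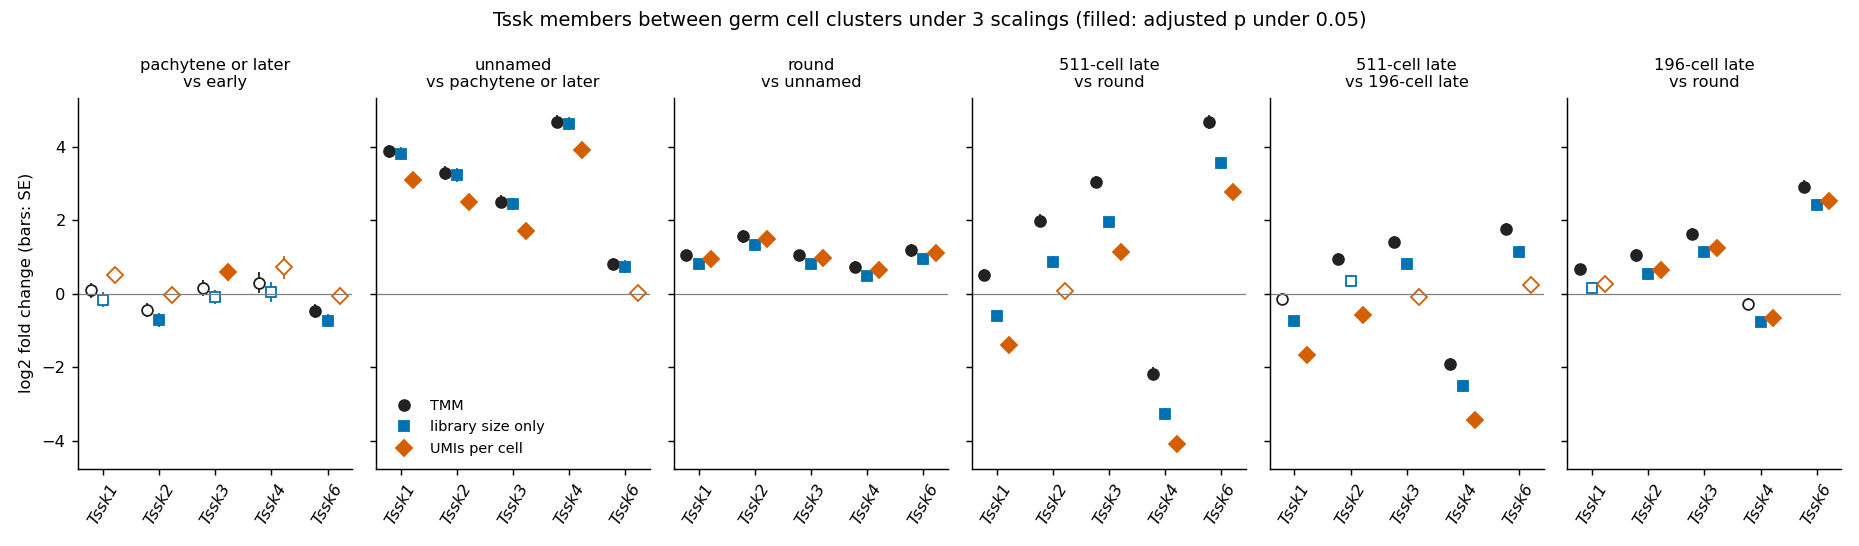
Log2 fold change of each kinase in 6 comparisons of germ cell clusters, with TMM (circles), the library size alone (squares) and UMIs per cell (diamonds), where bars are SE and filled symbols have an adjusted p under 0.05. For Tssk1 in the 511 cells against round spermatids the values lie on either side of 0 (0.51, -0.60 and -1.41), while those of Tssk3, Tssk4 and Tssk6 keep their sign there.

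A finer view came from dividing the ordered germ cells of each mouse into 10 bins of equal cell number. Along diffusion pseudotime, the mean of the mice was highest in bin 6 for Tssk4, in bin 8 for Tssk1 and Tssk2 and in bin 10 for Tssk3 and Tssk6, although Tssk1 in mouse 1 was highest in bin 7 (1005 CPM against 967 CPM in bin 8). Along the angle ordering the late clusters were separated, with 253 of the 254 cells of bin 10 from the 511-cell cluster, and the bins with the highest mean were 6 for Tssk4, 8 for Tssk1, 9 for Tssk2 and 10 for Tssk3 and Tssk6, although Tssk1 in mouse 2 was highest in bin 9 (1262 CPM against 1192 CPM in bin 8). Within the 511-cell cluster Tssk1 was then uneven. It had 851 CPM in mouse 1 and 1262 CPM in mouse 2 in bin 9, where 221 of 253 cells came from this cluster, and 179 and 179 CPM in bin 10. Tssk2 went from 2575 and 2540.4 CPM to 1513 and 1850.0 CPM over the same bins. Tssk6 instead went from 1523 and 1476 CPM to 1876 and 2577 CPM, and Tssk3 from 743 and 827 CPM to 961 and 1347 CPM. Both mice thus moved down for Tssk1 and Tssk2 and up for Tssk3 and Tssk6 between these bins, for which bins of cells give no test. Prm1 reached 106942 and 76609 CPM in bin 10.

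**Figure D3:**
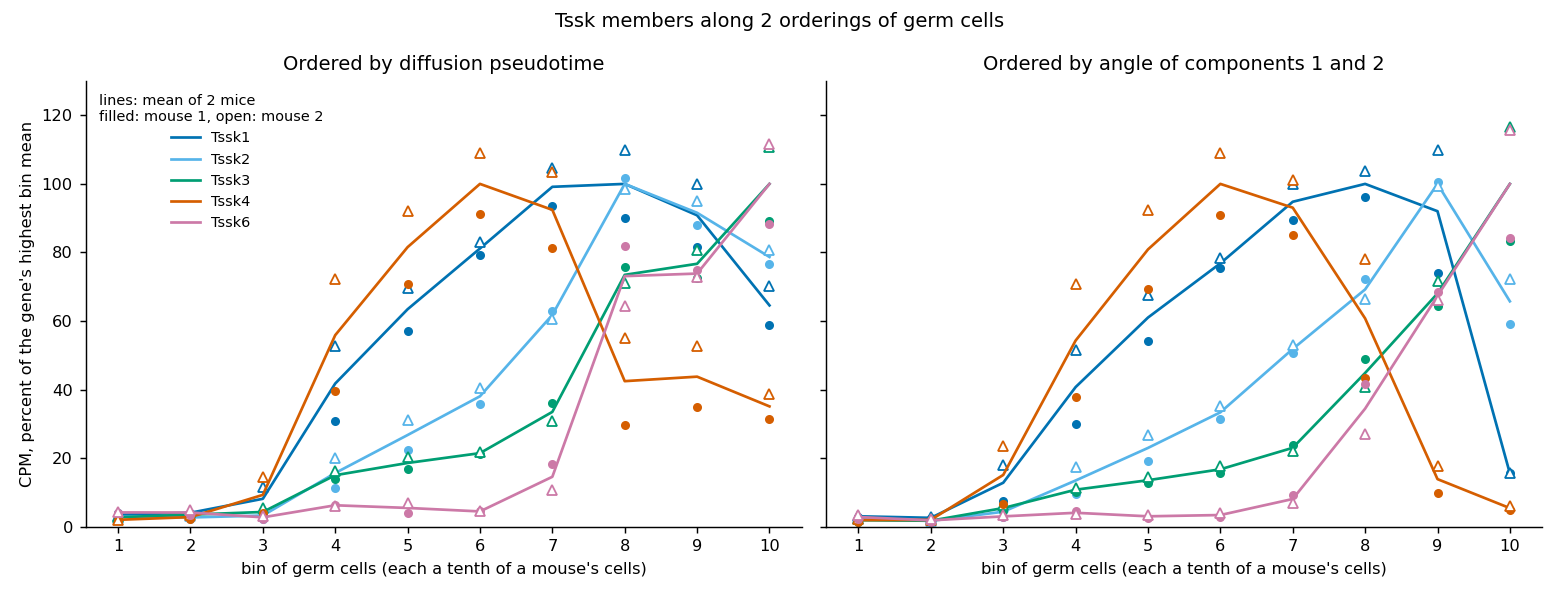
CPM of each kinase in 10 bins of ordered germ cells, as a percentage of the gene's highest bin mean, along diffusion pseudotime (left) and along the angle of components 1 and 2 (right), with filled circles for mouse 1, open triangles for mouse 2 and lines for their mean. On the right, the highest means are in bin 6 (Tssk4), 8 (Tssk1), 9 (Tssk2) and 10 (Tssk3 and Tssk6).

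The share of cells with at least 1 UMI was compared at equal depth. After thinning each cell to 5000 UMIs, which left no cell out, Tssk6 was found in 45.5% of 448 round spermatids (Clopper-Pearson 95% interval 40.9% to 50.3%, counting error only), in 192 of the 196 cells (94.9% to 99.4%) and in all of the 511 cells. Tssk4 was found in 79.7% of round spermatids (75.7% to 83.3%), in 62.2% of the 196 cells and in 14.7% of the 511 cells (11.7% to 18.0%). Tssk1 was found in 99.3% of round spermatids and 99.5% of the 196 cells but in 70.6% of the 511 cells (66.5% to 74.6%), while Tssk2 was found in 99.8%, 99.5% and 99.6%, where the share is near its ceiling and does not show its level (5.99, 8.69 and 10.8 UMIs per thinned cell). Without thinning, Tssk6 was already found in 74.6% of the round spermatids of mouse 1 and 85.7% of those of mouse 2. The 12 somatic-like cells, at a median of 10536 UMIs, held a Tssk6 UMI in 6 cells, a Tssk1 UMI in 7 and a Tssk4 UMI in 2 without thinning, so that a UMI in a single cell does not mark it as expressing these kinases.

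**Figure D4:**
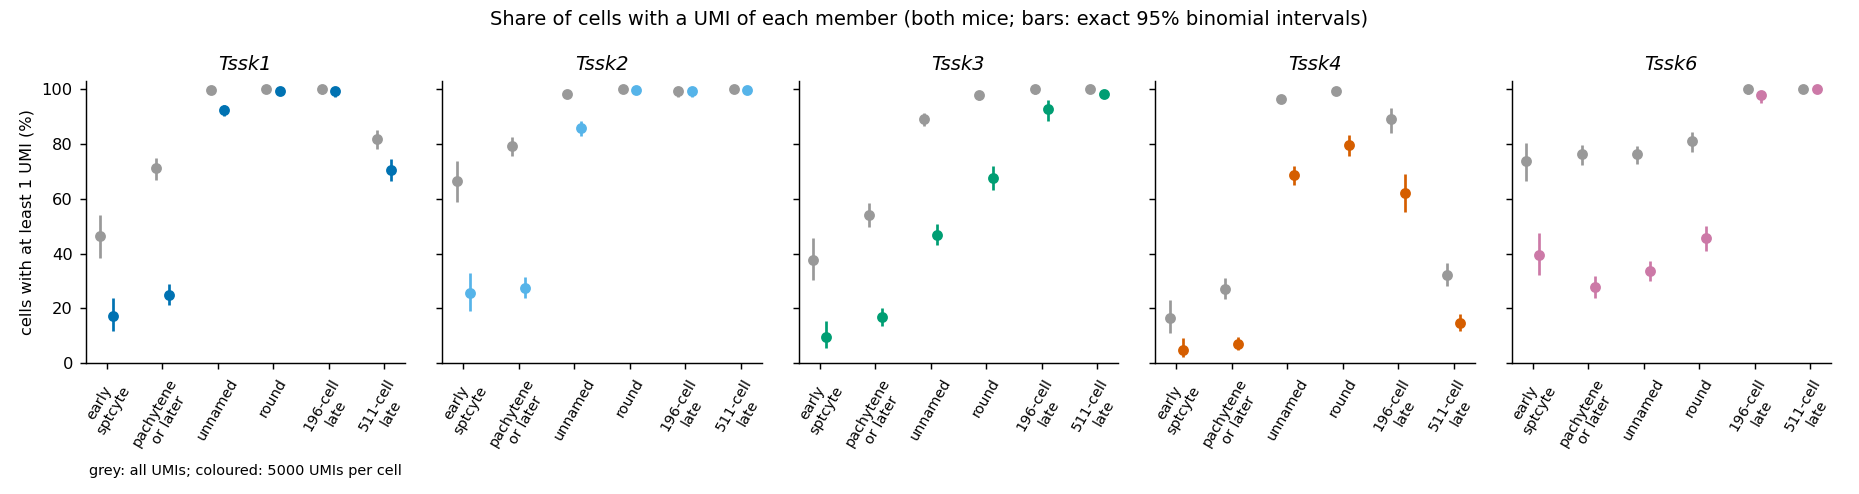
Share of cells (percent, both mice) with at least 1 UMI of each kinase in the 6 germ cell clusters, from all UMIs (grey) and after thinning to 5000 UMIs per cell (coloured), with exact 95% binomial intervals. In the 511-cell cluster the thinned share was 70.6% for Tssk1, 14.7% for Tssk4 and 100% for Tssk6.

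At this equal depth the number of kinases with a UMI in the same cell was counted, with free RNA not removed. On average 3.83 (mouse 1) and 3.99 (mouse 2) of the 5 kinases were found in a round spermatid, 4.44 and 4.58 in a cell of the 196-cell cluster and 3.83 and 3.83 in a cell of the 511-cell cluster. All 5 were found together in 48.9% and 60.2% of the 196 cells, against 22.2% and 27.4% of round spermatids and 8.16% and 14.0% of the 511 cells. The means of pachytene or later spermatocytes, read as background above, were 1.01 and 1.08. The Tssk6 level of round spermatids (145 and 168 CPM) lies within the pooled interval of the somatic-like cells (67.5 to 192 CPM). As 1 Sertoli-like cell gave 8 of the 16 UMIs behind it, this interval does not decide whether that level is background. Without thinning, 6 of the 12 somatic-like cells held a Tssk6 UMI, so that a count of 5 in a round spermatid does not mark it as expressing all 5 kinases.

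Between the mice, mouse 2 had the higher CPM in 25 of 30 pairs of kinase and cluster, the exceptions being all 5 kinases in early spermatocytes, and the ratio of mouse 2 to mouse 1 ranged from 0.573 to 1.36. The lowest ratios were those of early spermatocytes, where Tssk1 had 64.1 CPM in mouse 1 and 36.8 CPM in mouse 2 and Tssk2 had 111 and 65.2 CPM. Over all genes with at least 100 UMIs in each mouse, 50.3% to 52.3% were higher in mouse 2 in the 5 clusters other than the 511-cell one. In the 511-cell cluster Tssk3 was 828 against 1104 CPM and Tssk6 1618 against 2082 CPM, and their exact 95% Poisson intervals did not overlap between the mice (799 to 859 and 1067 to 1141 CPM for Tssk3, 1577 to 1661 and 2032 to 2133 CPM for Tssk6). Prm1 went the other way there, with 90812 CPM in mouse 1 and 67584 CPM in mouse 2. Of 2524 genes with at least 100 UMIs in each mouse in this cluster, 56.9% were higher in mouse 2 and 15.8% were at least 1.2-fold higher. With 1 animal on either side, this difference has no replicate check.

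Among the genes that work with the kinases, the substrate Tsks had its highest CPM in the 511 cells, like Tssk2 and Tssk3, and like them its highest UMIs per cell in the 196 cells (mean 27.5 against 20.7 in the 511 cells). It had 566 and 558 CPM in round spermatids, 1095 and 1111 CPM in the 196 cells and 1595 and 1551 CPM in the 511 cells, with log2 fold changes of 1.48 (adjusted p = 1.1e-07) and 2.59 (adjusted p = 9.2e-12) against round spermatids. Tsacc, the co-chaperone that links TSSK6 to HSP90, was present from spermatocytes on (599 and 574 CPM in pachytene or later cells) and reached 1444 and 1344 CPM in the 511 cells, with a log2 fold change of 2.36 against round spermatids. Per cell, Tsacc had 20.3 and 19.5 UMIs in pachytene or later spermatocytes and 18.3 and 18.4 in the 511 cells. The mean UMIs per cell of Tsacc and Odf2 were also higher in the 196 cells (20.0 and 64.2) than in the 511 cells (18.3 and 59.9). For Odf2 the mice overlapped, with 57.9 and 70.5 UMIs per cell in the 196 cells and 50.8 and 69.0 in the 511 cells. Odf2, the TSSK4 substrate, was at 1944 and 2146 CPM in round spermatids and 4019 and 5044 CPM in the 511 cells (log2 fold change 2.26), where Tssk4 itself was at 32.3 and 37.4 CPM. Pdpk1, whose product can activate TSSK3, rose from 147 and 158 to 373 and 397 CPM in the 196 cells (log2 fold change 1.84). It was at 362 and 354 CPM in the 511 cells. The log2 fold changes of these genes are from the TMM fit and are not ratios of the CPM shown.

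Hsp90aa1, a chaperone gene, was lowest in the late spermatids. It fell from 3051 and 3183 CPM in pachytene or later spermatocytes to 1405 and 1432 CPM in round spermatids and 166 and 164 CPM in the 511 cells, 3.99-fold lower in the last than in round spermatids with TMM (adjusted p = 4.9e-11). Hsp90ab1 (log2 fold change -0.67, not called with DESeq2) and the kinase co-chaperone Cdc37 (-1.28) were also called lower in the 511 cells than in round spermatids. Crem had 707 and 805 CPM in round spermatids and 68.7 and 99.7 CPM in the 511 cells, and Izumo1 had 224 and 250 CPM in the 196 cells and 20.5 and 26.2 CPM in the 511 cells, where Tssk6 was highest. Spag16, which encodes an axoneme protein and a TSSK2 substrate, fell by 2.44, whereas the calls of Ppp1cc (phosphatase) and H2afx (histone) depended on the scaling. Ppp1cc had a log2 fold change of 0.19 (not called) with TMM, 0.46 (called higher) with DESeq2, -0.92 (called lower) with the library size alone and -1.72 (called lower) with UMIs per cell, and H2afx had -0.20 (not called), 0.06 (not called), -1.30 (called lower) and -2.11 (called lower). Of the 12 partner genes, 4 were called higher and 6 lower between the 511 cells and round spermatids, against 26.6% and 31.7% of all genes, with a median log2 fold change of -0.43 beside -0.18 over all genes. With the library size alone these counts were 4 and 8, against 12.8% and 55.5% of all genes, and with UMIs per cell 3 and 8, against 8.09% and 71.9%. Tsks, Tsacc and Pdpk1 were called higher under all 3 scalings while Odf2 was not with UMIs per cell (0.34, adjusted p = 0.072).

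**Figure D5:**
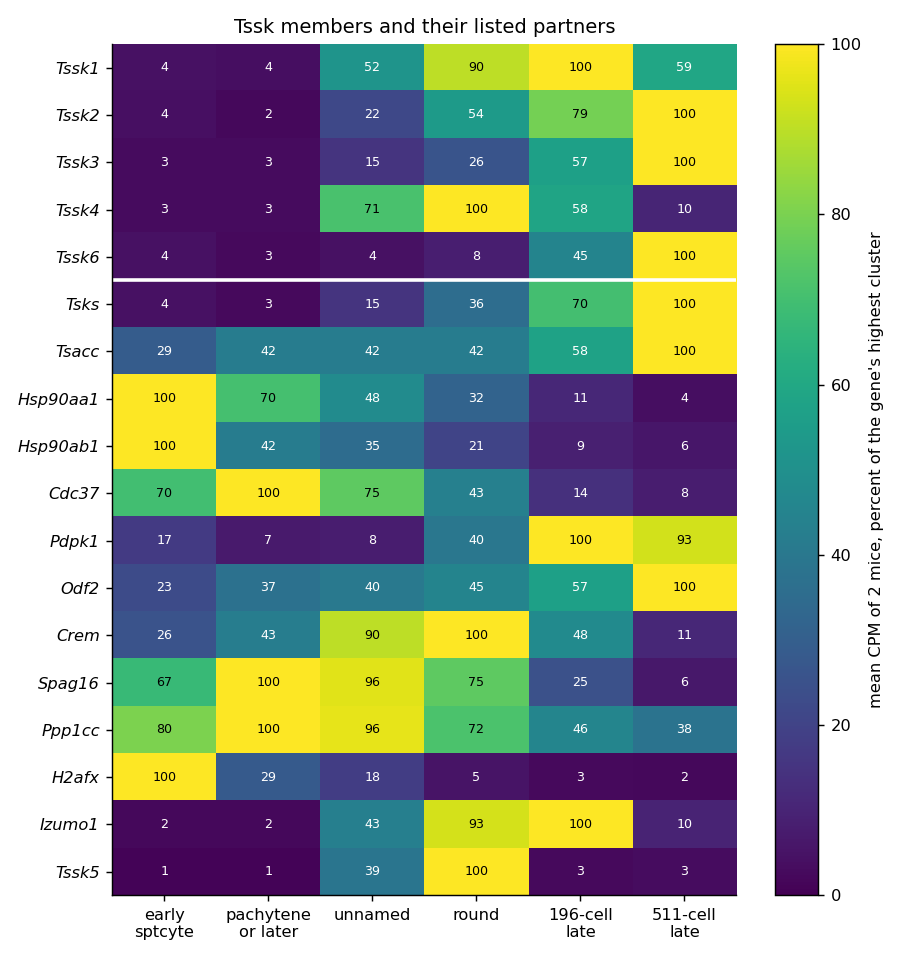
Mean CPM of 2 mice in 6 germ cell clusters, as a percentage of each gene's highest cluster, for the 5 kinases (above the white line) and for 12 partner genes and Tssk5 (below). Tsks, Tsacc and Odf2 have their highest CPM in the 511 cells with Tssk2, Tssk3 and Tssk6, while Crem and Tssk5 are highest in round spermatids with Tssk4.

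Tssk5, a family gene outside the 5, had 91.9 and 88.6 CPM in round spermatids, 28.9 and 41.2 CPM in the unnamed cluster and 1.96 and 3.83 CPM in the 511 cells. Its fall from round spermatids to the 511 cells (log2 fold change -3.87, SE 0.28, adjusted p = 4.9e-11) was thus in the direction of Tssk4, and it was at 2.38 and 2.49 CPM in the 196 cells, where Tssk4 had 188 and 208 CPM.

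Likeness between profiles was described by Pearson's r of log2(CPM + 10) over the 20 points of 10 bins in 2 mice, which share libraries and the ordering and are not independent. Along diffusion pseudotime the closest pair of kinases was Tssk2 and Tssk3 (r = 0.97), and the least alike pair was Tssk4 and Tssk6 (r = 0.32). Along the angle these pairs were again the closest (0.96) and the least alike (-0.06), and Tssk3 with Tssk4 went from 0.70 to 0.35. Tssk1 was nearer to Tssk2 (0.96) and Tssk4 (0.94) than to Tssk6 (0.61) along diffusion pseudotime, and along the angle these values were 0.86, 0.86 and 0.39. Nearest genes were sought among 8017 genes with at least 500 UMIs. With diffusion pseudotime, the 3 nearest to Tssk1 were Fam183b, Fam83e and 4430402I18Rik (r of at least 0.99 for these and all genes named next). Those nearest to Tssk2 were Galntl5, Hils1 and Capza3, and those nearest to Tssk3 were Fam187b, Ube2n and Spert. Tssk4 was nearest to 1700001L19Rik, 1700016G14Rik and Ttll9, and Tssk6 to Ppp2r2b, 1700012A03Rik and Spem1. Hils1 encodes a linker histone of spermatids and Capza3 an actin-capping subunit of spermatids. With the angle ordering, Fam183b, Galntl5, Fam187b with Ube2n, and Ppp2r2b with Spem1 were again among the 3 nearest to Tssk1, Tssk2, Tssk3 and Tssk6, and the 3 nearest to Tssk4 were others.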

How the data were processed

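UMI counts per gene and cell were used as deposited by the authors, who had demultiplexed reads with bcl2fastq 2.17.1.14, aligned them with Cell Ranger 2.0.0 to a repeat-masked GRCm38 genome (mm10 in the submitters' processing notes) with transposable elements added as extra chromosomes, and merged both mice after downsampling reads to equal mean depth. Masked stretches of a transcript could not receive reads. The kinases and the gene lists were chosen with earlier results of these data known. Each barcode's ending was taken as the mouse number.

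All 2552 cells were kept, including 25 called as doublets by scrublet. Cells had 7114 to 154431 UMIs. K-means (K = 9, 10 restarts, seed 42) was run on 10 principal components (scikit-learn 1.9.0, scanpy 1.11.5) without the 5 kinases and the listed genes. Clusters were named by marker lists, with at least 3 markers at 1.5 times the level of all cells. Diffusion pseudotime was computed on 2534 germ cells and, as an alternative, replaced by the angle of components 1 and 2. Both late clusters carry the same name and are told apart by their cell numbers. Counts were summed per mouse and cluster of at least 50 cells (12 sums) and fitted once with edgeR 4.0.16 (TMM, filterByExpr, quasi-likelihood, Benjamini-Hochberg over 14148 genes), with DESeq2 1.42.0, other scalings, filters and clusterings as alternatives. The comparison of the 196 cells with round spermatids and the library size without protamine and transition protein UMIs were added after seeing the data. In data simulated for round spermatids against the unnamed cluster, edgeR recovered 193 of 200 changes of 4-fold, with 5 false calls among the unchanged of 14148 genes. Only these 200 genes were changed, whereas 25.7% of genes were called higher and 20.0% lower in the data. The simulated false calls therefore do not measure those of the comparisons reported. Same-numbered sums come from the same animal, and their deviations correlated at 0.019 to 0.231 over 15 cluster pairs. p-values measure the spread between 2 littermates. CPM intervals are exact Poisson intervals that cover counting error only. Named besides the kinases were all listed partners, Tssk5, the 4 listed germ cell kinases with the most UMIs and the 3 genes most like each kinase. Figures used matplotlib 3.10.9, and protein and promoter alignments used Biopython 1.88.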

Additional observations from a re-analysis of the deposited data

How the results depend on the processing

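The rises of Tssk1, Tssk2, Tssk3 and Tssk4 from pachytene or later spermatocytes to the unnamed cluster, those of all 5 kinases from there to round spermatids, and the late rise of Tssk3 and Tssk6 and fall of Tssk4 in the 511 cells against round spermatids, kept their direction under each alternative that gave a value, among them DESeq2, no gene filter, thinned cells, cells without doublets and either mouse alone. Clusters from the 2000 most variable genes merged round spermatids with the unnamed cluster and gave no value for comparisons with round spermatids. The rise of Tssk6 to the unnamed cluster was not called with UMIs per cell (0.01) and with thinned cells (0.33). The cause was not tested for any change below.

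Between early and pachytene or later spermatocytes, CPM levels were near background. Of all genes, 34.7% were called higher and 15.3% lower between these clusters with UMIs per cell, and 20.0% and 31.4% with the library size alone. Such shares were not computed for the other alternatives. The count of kinases called higher (0) between these clusters became 1 with UMIs per cell and without doublets and 3 with the 2000 most variable genes. The count called lower (1) became 2 with DESeq2, with the mouse as a replicate block, with the library size alone and with it after leaving out protamine and transition protein UMIs, and 0 without the gene filter, with UMIs per cell, with thinned cells, without doublets and with the 2000 most variable genes. There Tssk1 turned to -0.21 (DESeq2) and -0.16 (library size, with and without those UMIs), Tssk3 to -0.12 (DESeq2), -0.0927 (library size) and -0.0932 (without those UMIs), and Tssk2 to 0.0409 (thinned), 0.15 (without doublets) and 0.12 (2000 most variable genes).

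For the 511 cells against round spermatids, UMIs per cell gave 2 kinases higher and 2 lower, and the library size alone gave 3 higher and 2 lower. Tssk1 turned to -0.60 (library size), -0.34 (without protamine and transition protein UMIs) and -1.41 (UMIs per cell), and was -0.61 to -0.59 as log2 CPM in either mouse alone. For the 511 against the 196 cells, UMIs per cell gave 0 higher and 3 lower, and both library sizes gave 2 lower. The count called higher was 2 with the library size alone. Tssk1 turned to 0.0819 (DESeq2) and 0.00204 (no gene filter), Tssk2 to -0.58 and Tssk3 to -0.10 (UMIs per cell). For the 196 cells against round spermatids, 1 kinase (Tssk4) in place of 0 was called lower without the gene filter, with the replicate block, with both library sizes, with UMIs per cell and with another K-means seed. The count called higher there (4) became 3 with the library size alone and with UMIs per cell, against 17.3% and 18.0% of all genes. Of all genes, 39.0% were called lower in this comparison with the library size alone and 33.0% with UMIs per cell. The block changed no other call than those of Tssk2 and Tssk4 given here and above.

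The cluster with the highest level had 196 in place of 511 cells for Tssk2 and Tssk3 with UMIs per cell. The bin with the highest level was 7 for Tssk1 and 9 for Tssk2 with UMIs per cell, 9 for Tssk2 with the angle, and 7 to 8 for Tssk1 with either mouse left out. Thinning moved the share of cells with a UMI in the highest cluster to 99.5% (Tssk1), 99.6% (Tssk2), 98.4% (Tssk3) and 79.7% (Tssk4). With 2 mice, leaving out 1 gives values with no test. The few somatic-like cells (12) limit how closely the background of the spermatocyte levels is known.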

Other observations

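The Tssk genes are not the only kinases of the germ line, and a list of 18 other germ cell kinases was measured for comparison. Between pachytene or later and early spermatocytes, 11 of the 18 were called higher and 3 lower with TMM, against 25.5% and 24.6% of all genes (median log2 fold change 0.62 beside 0.00 over all genes), and 9 and 5 with the library size alone, against 20.0% and 31.4%. Nek2, a centrosome kinase, had 385 and 355 CPM in pachytene or later spermatocytes of mouse 1 and mouse 2, and 15.2 and 17.8 CPM in round spermatids. Plk1, a kinase of cell division, had 219 and 222 CPM in pachytene or later spermatocytes, 220 and 227 CPM in the unnamed cluster and 7.85 and 11.8 CPM in the 511 cells. Stk33 was also highest in pachytene or later spermatocytes, at 420 and 422 CPM. Mak, a ciliary kinase, was highest in round spermatids at 258 and 234 CPM.

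In the 511 cells, 6 of these 18 kinases were called higher and 10 lower than in round spermatids with TMM, against 26.6% and 31.7% of all genes. With the library size alone none was higher and 12 were lower, against 12.8% and 55.5% of all genes, and with UMIs per cell none was higher and 17 were lower, against 8.09% and 71.9%. Tssk3 and Tssk6 were called higher under all 3 scalings. As a percentage of the gene's own highest cluster, Nek2, Plk1 and Stk33 stood at 100%, 98.7% and 100% in pachytene or later spermatocytes. Mak stood at 31.4% there and the 5 Tssk genes at 2.33% to 3.70%. This cluster is the highest of Nek2 and Stk33, so that their 100% follows from the measure. Only these 4 of the 18 listed kinases, those with the most UMIs, were set beside the Tssk genes in this way.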
